A study of Mus musculus with 6 samples.

Results

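The 32 genes described here are p53 (Trp53), its relative Trp73, the regulators Mdm2, Mdm4 and Ccng1, and the best known p53 targets. The targets serve cell cycle arrest, cell death, DNA repair and stress. The deposited count table held 24537 gene symbols. The 32 genes were taken by symbol from a fixed list, and all 32 had a row. RNA was sequenced from 6 brain tumors of CD-1 IGS mice, made by in utero electroporation, in which plasmids are driven into the cells of an embryonic brain. All 6 tumors carried the mutant PDGF receptor PdgfraD482V and DNp53, a dominant-negative p53, and 3 of them also carried FOXR2, a forkhead transcription factor, while 3 served as Control. The promoters that drove the constructs, the species and extent of the p53 construct, the ages of the mice and whether each tumor came from its own animal are details that the sources used here do not state. No tumor without the dominant-negative p53 was analysed here, so its own effect could not be measured.

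p53 is a transcription factor that is kept scarce by Mdm2 and Mdm4 and accumulates after DNA damage, oncogene signaling or other stress. It then binds pairs of a short palindromic motif near its target genes and raises genes that halt the cell cycle, promote apoptosis or aid repair, Mdm2 among them, which closes a feedback loop. A dominant-negative p53 joins the tetramers of the normal protein and blocks their function, and loss of p53 function is common in glioma. Since mRNA levels were measured, neither p53 protein nor its binding to DNA was assessed.

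Groups are called titled FOXR2 and titled Control, after the sample titles, because a deposited sample sheet swaps them: its group differs from the title in 6 of 6 libraries. Values by library stand in the order of replicates 1, 2 and 3, and the short names FOXR2 and Control libraries follow the titles too. If the sheet is right, every direction below turns round. The mouse row Foxr2 was hardly detected, at 22, 1 and 7 counts across the FOXR2 libraries and 4, 10 and 7 across the Control ones, and the counts overlap. Whether this row counts reads of the FOXR2 construct is not known. The libraries held 13429489 to 17927025 counts. The 8 markers of glioma and oligodendrocyte precursors summed to 6105 to 8567 CPM (counts scaled to library size, with TMM factors) in the FOXR2 libraries and to 5072 to 6066 CPM in the Control ones, without overlap, and 0 of the 8 were called by edgeR. Pdgfra, the largest term of this sum, overlapped, at 3599, 2497 and 3263 CPM against 2045, 2506 and 2018 CPM. Reads from the PdgfraD482V construct may be counted in it. Sox10 and Nes had log2 fold changes below 0 (-0.19 and -0.20) and the other markers above 0. FOXR2 replicate 2 stood apart by its 18 microglia and macrophage markers, which summed to 1986 CPM there and to 45.0 to 67.6 CPM in the other libraries. Markers of mature oligodendrocytes ranged from 221 to 5180 CPM, with the groups overlapping. The sum of 10 neuron markers overlapped too, at 135 to 324 CPM against 148 to 201 CPM, but its members differed. Syt1 and Syn1, of synaptic vesicles, were called higher in the FOXR2 libraries (log2 fold changes 4.08 and 1.32; edgeR adjusted p = 0.0436 and 0.0489). Rbfox3 and Snap25 were higher and the neurofilaments Nefl and Nefm lower without overlap and without a call. Endothelial, T cell and red blood cell markers summed to at most 15.3 CPM. The part of these cell types in the results below was not tested. By Xist and Y-linked genes, FOXR2 replicate 2 and Control replicates 2 and 3 came from female mice, and the other libraries from males.

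A promoter window of RefSeq (build GRCm38.p6, 250 bases before to 50 bases after an annotated start) was on hand for 24 of the 32 genes, and none was on hand for Zmat3, Pmaip1, Perp, Tnfrsf10b, Trp53inp1, Rrm2b, Ddb2 and Xpc. The windows were searched for the 10-base p53 consensus decamer, a palindrome that reads alike on both strands. At least 1 exact decamer lay in a window of 11 of the 24 genes, or 45.8%, against 9.55% of all 27025 genes with windows. The 20-base site, which is 2 decamers side by side, was searched for with at most 1 mismatch. It was found in 2 of the 33 windows of the 24 genes, 1 of Cdkn1a and 1 of Ccng1. Of all 32851 windows, 0.0883% held one. The 2 windows of Cdkn1a and Ccng1 are shown whole, since they hold the most complete sites of the set, with the 20-base site in capitals.
Cdkn1a, chr17:29090729-29091028, plus strand: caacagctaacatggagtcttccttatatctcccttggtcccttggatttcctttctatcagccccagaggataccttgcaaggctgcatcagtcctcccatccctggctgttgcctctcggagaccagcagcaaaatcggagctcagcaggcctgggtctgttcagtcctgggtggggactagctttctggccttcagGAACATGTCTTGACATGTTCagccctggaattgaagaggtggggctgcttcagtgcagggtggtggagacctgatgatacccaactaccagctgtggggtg
Ccng1, chr11:40755237-40755536, minus strand: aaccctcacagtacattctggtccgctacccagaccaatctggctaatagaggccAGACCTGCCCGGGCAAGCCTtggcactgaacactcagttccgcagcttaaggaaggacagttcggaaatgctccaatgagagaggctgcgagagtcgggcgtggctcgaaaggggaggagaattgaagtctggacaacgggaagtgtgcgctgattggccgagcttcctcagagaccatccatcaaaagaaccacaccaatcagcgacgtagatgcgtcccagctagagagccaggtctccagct

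The Cdkn1a site ended 2822 bases before the other annotated start of that gene, whose own window held no decamer. In 9 further genes the window held a decamer without a full site. These are shown with 10 flanking bases on each side and the decamer in capitals, so that the matches behind the count can be compared.
Trp53, chr11:69580274-69580303, plus strand: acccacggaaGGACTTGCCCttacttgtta
Mdm2, chr10:117710925-117710954, minus strand: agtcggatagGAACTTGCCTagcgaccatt
Gadd45a, chr6:67037428-67037457, minus strand: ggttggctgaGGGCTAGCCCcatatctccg
Ckap2, chr8:22186003-22186032, minus strand: ctgtgtctgaAGACATGTCCtgacttgtca
Bax, chr7:45467080-45467109, minus strand: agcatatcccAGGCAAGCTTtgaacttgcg
Aen, chr7:78895927-78895956, plus strand: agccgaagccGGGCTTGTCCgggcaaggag
Ei24, chr9:36797325-36797354, minus strand: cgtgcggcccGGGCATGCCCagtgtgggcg
Polk, chr13:96519399-96519428, minus strand: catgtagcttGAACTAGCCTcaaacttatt
Sesn1, chr10:41887256-41887285, plus strand: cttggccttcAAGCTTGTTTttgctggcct

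Such a match is a description of letters and says nothing on binding in these tumors, and many known p53 sites lie in introns or farther upstream, outside such windows. Among the tested genes with a window, the 11 with a decamer had log2 fold changes of -0.54 to 0.56 (titled FOXR2 minus titled Control) and a median of -0.24. The 11 without a decamer spanned -1.66 to 1.39 with a median of -0.53.

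Trp53 mRNA was abundant in all 6 tumors, and its level did not separate the groups. It stood at 434, 173 and 305 CPM across the FOXR2 libraries and at 388, 561 and 377 CPM across the Control ones. The groups overlapped, with the lowest value in FOXR2 replicate 2 and the highest in Control replicate 2. The means were 304 ± 131 and 442 ± 104 CPM (SD, n = 3 each; p = 0.3 by a two-sided exact permutation test, which cannot go below 0.1). The log2 fold change was -0.54 ± 0.35 (SE), with a 95% interval of -1.35 to 0.27 (edgeR quasi-likelihood test, Benjamini-Hochberg adjusted p = 0.378). Without FOXR2 replicate 2, the library with microglia and macrophage markers, it was -0.26, without Control replicate 2 it was -0.32 and without FOXR2 replicate 1 it was -0.88. Fewer cells of a type and less RNA per cell cannot be told apart in bulk samples, for this gene and all that follow.

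Per kilobase of exon, Trp53 averaged 200 CPM over the 6 libraries, higher than 97.8% of the tested genes that had a length. Reads from the host gene and from the p53 construct cannot be told apart in these counts, and the pseudogene Trp53-ps is a near copy of the mRNA. Trp73, a p53 relative with roles in neural development, had 1 count in each FOXR2 library and 0 in each Control library, which lies under the floor of 3 counts (0.174 to 0.219 CPM) everywhere, so no fold change is given. The third relative, Trp63, had 0 counts in all 6 libraries.

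**Figure D1:**
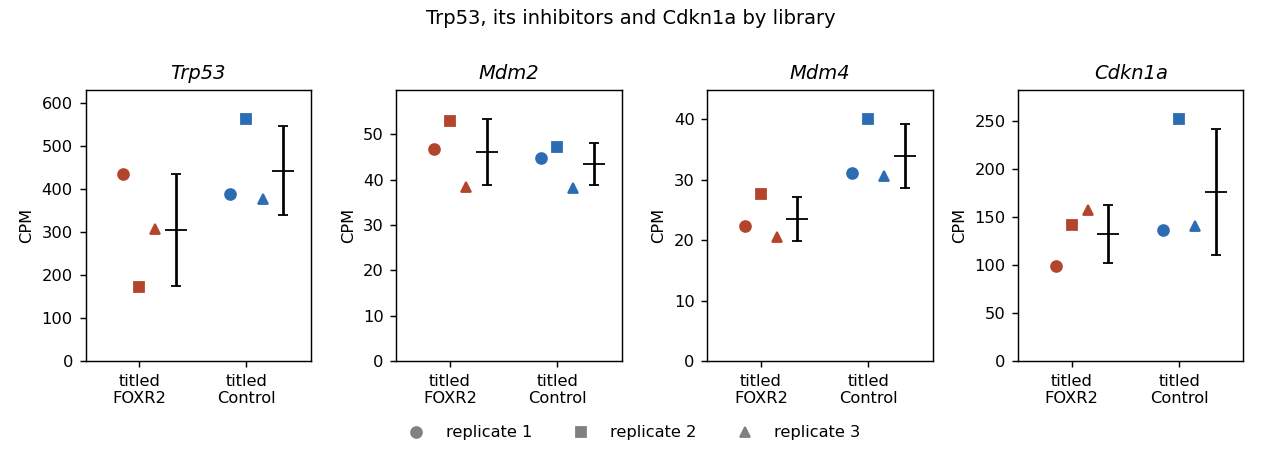
Levels in CPM (vertical axes, from 0) of Trp53, its inhibitors Mdm2 and Mdm4 and its target Cdkn1a in each library, with the symbol giving the replicate and the bar the mean ± SD of 3 libraries. The Mdm4 values of the libraries titled FOXR2 (20.5 to 27.6 CPM) all lie below those titled Control (30.7 to 40.1 CPM), while the groups overlap for the other genes.

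Of the 32 genes, 30 passed the filter on low counts and were tested; Trp73 and Gdf15 did not. By the edgeR test at an adjusted p under 0.05, 0 of the 30 were called, where 2.29% of all 13101 tested genes were called in either direction. At an unadjusted p under 0.05, 5 of the 30 (16.7%) lay lower in the libraries titled FOXR2, namely Mdm4, Plk3, Tnfrsf10b, Eda2r and Sesn2, against 13% of all tested genes, and 0 lay higher against 11.9%. DESeq2 called 2 of the 30 lower, Plk3 and Tnfrsf10b, and gave Perp no adjusted p. Of the 12542 genes to which DESeq2 gave an adjusted p, it called 7.34% lower. The groups did not overlap in 6 of the 30 (20%) with titled FOXR2 the lower, against 17.2% of all tested genes, and in 0 with titled FOXR2 the higher, against 13.1%. These shares of lower genes lie near the background.

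The median log2 fold change of the 30 was -0.26, beside 0.01 over all tested genes. Of the 30, 19 (63.3%) lay below 0, against 49.3% of all tested genes. Without Control replicate 1 the median was -0.081. Leaving out 1 library in turn moved the log2 fold change by over 1.5 times, or turned its sign, in 25 of the 30, and in none of Mdm4, Plk3, Bbc3, Tnfrsf10b and Pidd1. The share of all tested genes that moved in this way was not computed. The 95% intervals were wide, and 25 of the 30 spanned 0. Within groups the genes varied by a median SD of 0.47 on the log2 scale, against 0.33 over all tested genes.

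**Figure D2:**
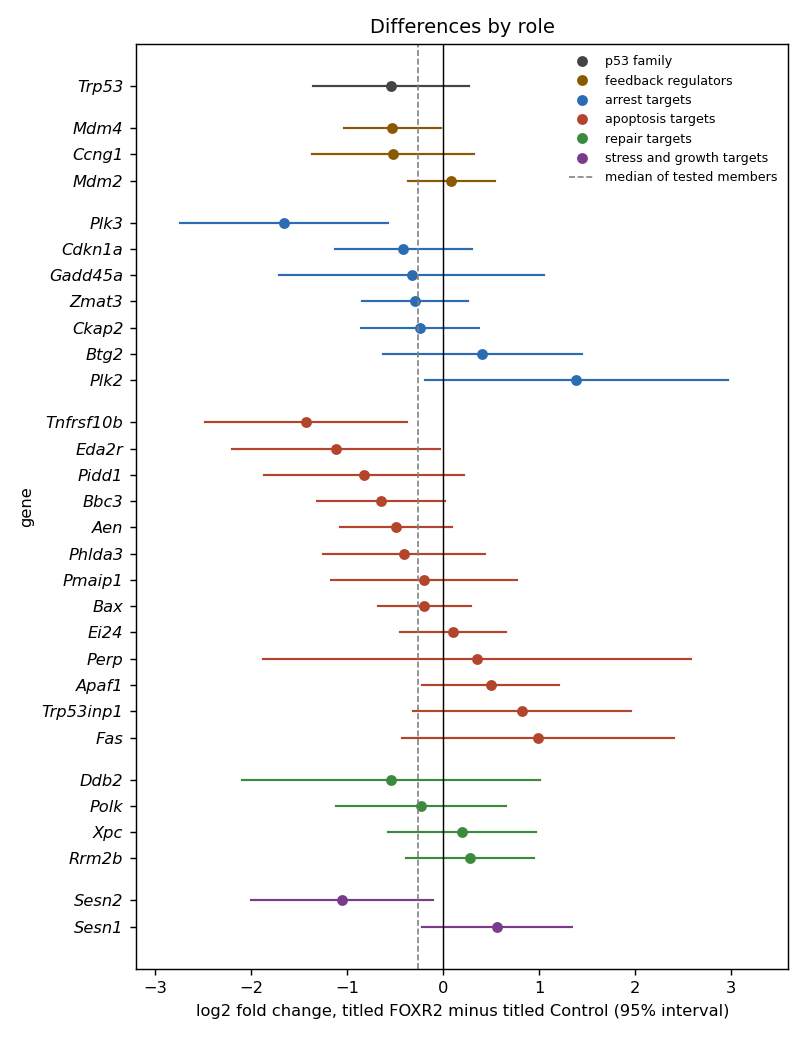
Log2 fold changes (horizontal axis, titled FOXR2 minus titled Control) with 95% intervals from the edgeR fit for the 30 tested genes, grouped by role, with the median of the 30 (-0.26) as a dashed line. The interval lies wholly below 0 for Mdm4, Plk3, Tnfrsf10b, Eda2r and Sesn2, and wholly above 0 for none of the 30.

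Of the 3 feedback regulators, Mdm2, Mdm4 and Ccng1, 1 had groups that did not overlap, with titled FOXR2 the lower (33.3%, against 17.2% of all tested genes). Mdm2, the ubiquitin ligase that marks p53 for destruction and is itself a p53 target, was the steadiest of the 30 across libraries. It stood at 46.8, 52.9 and 38.4 CPM across the FOXR2 libraries and at 44.7, 47.2 and 38.2 CPM across the Control ones. The highest library was 1.38-fold above the lowest, and the groups overlapped throughout. Its log2 fold change was 0.09 ± 0.19 with an interval of -0.36 to 0.54 (edgeR adjusted p = 0.813).

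Mdm4, which binds p53 and masks its activation domain, stood at 22.4, 27.6 and 20.5 CPM across the FOXR2 libraries and at 31.1, 40.1 and 30.7 CPM across the Control ones. All 3 libraries titled FOXR2 lay below all 3 titled Control. The log2 fold change was -0.53 ± 0.22 (23.5 ± 3.66 against 33.9 ± 5.31 CPM as mean ± SD of 3 libraries each; edgeR adjusted p = 0.189). GENCODE vM21 lists a pseudogene, Mdm4-ps, whose reads could be shared. Ccng1, cyclin G1, which recruits a phosphatase to Mdm2, stood at 59.9, 104 and 70.4 CPM across the FOXR2 libraries and at 173, 79.3 and 84.2 CPM across the Control ones. Control replicate 1 was highest and the groups overlapped (log2 fold change -0.52 ± 0.36; edgeR adjusted p = 0.411). The fold change was -0.072 without Control replicate 1 and -0.79 without FOXR2 replicate 2.

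The arrest targets split in sign, with 5 of 7 below 0 (71.4%, against 49.3% of all tested genes). Cdkn1a encodes p21, the CDK inhibitor through which p53 stops the cycle. It stood at 98.7, 142 and 157 CPM across the FOXR2 libraries and at 136, 252 and 141 CPM across the Control ones. Control replicate 2, the library with the most Trp53, was the highest, and the other 5 overlapped. The log2 fold change was -0.41 ± 0.30 with an interval of -1.12 to 0.30 (edgeR adjusted p = 0.440), and -0.056 without Control replicate 2. Per kilobase of exon Cdkn1a averaged 56.9 CPM, above 90.4% of tested genes.

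The polo-like kinases Plk2 and Plk3, both induced by stress, lay on opposite sides. Plk3 stood at 4.18, 13.1 and 7.66 CPM across the FOXR2 libraries and at 18.5, 36.6 and 23.7 CPM across the Control ones. The groups did not overlap, at means of 8.31 ± 4.50 and 26.3 ± 9.30 CPM (SD, n = 3 each). Its log2 fold change of -1.66 ± 0.46 was the most negative of the 30 and had the smallest p of them (edgeR adjusted p = 0.0928). DESeq2 called it (adjusted p = 0.00882), and over all 13 alternative fits the adjusted p ran from 0.00882 to 0.264 with log2 fold changes of -2.15 to -1.33. A gene on the other strand, Tctex1d4, shares 84 exon bases with Plk3 and had 0 counts in all libraries.

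Plk2 stood at 178, 106 and 322 CPM across the FOXR2 libraries and at 68.2, 141 and 21.2 CPM across the Control ones. It had the widest range of the 30, 15.2-fold from Control replicate 3 to FOXR2 replicate 3, and the groups overlapped. Its log2 fold change of 1.39 ± 0.67 was the most positive of the 30 and did not pass the test (edgeR adjusted p = 0.251). It ran from 0.88 without FOXR2 replicate 3 to 2.18 without Control replicate 2.

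The remaining arrest genes showed no separation of the groups. Gadd45a, a stress sensor that restrains growth, ranged from 9.35 CPM in Control replicate 1 to 40.8 in Control replicate 2. Btg2, an antiproliferative cofactor of mRNA decay, ranged from 10.7 CPM in Control replicate 3 to 38.7 in FOXR2 replicate 2. Its log2 fold change of 0.41 turned to -0.13 without FOXR2 replicate 2. Zmat3, an RNA-binding zinc finger protein, and Ckap2, a spindle protein of dividing cells, were both highest in Control replicate 1, at 98.0 and 96.5 CPM, and lay between 49.8 and 73.6 CPM elsewhere (log2 fold changes -0.29 and -0.24; edgeR adjusted p = 0.485 and 0.616).

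**Figure D3:**
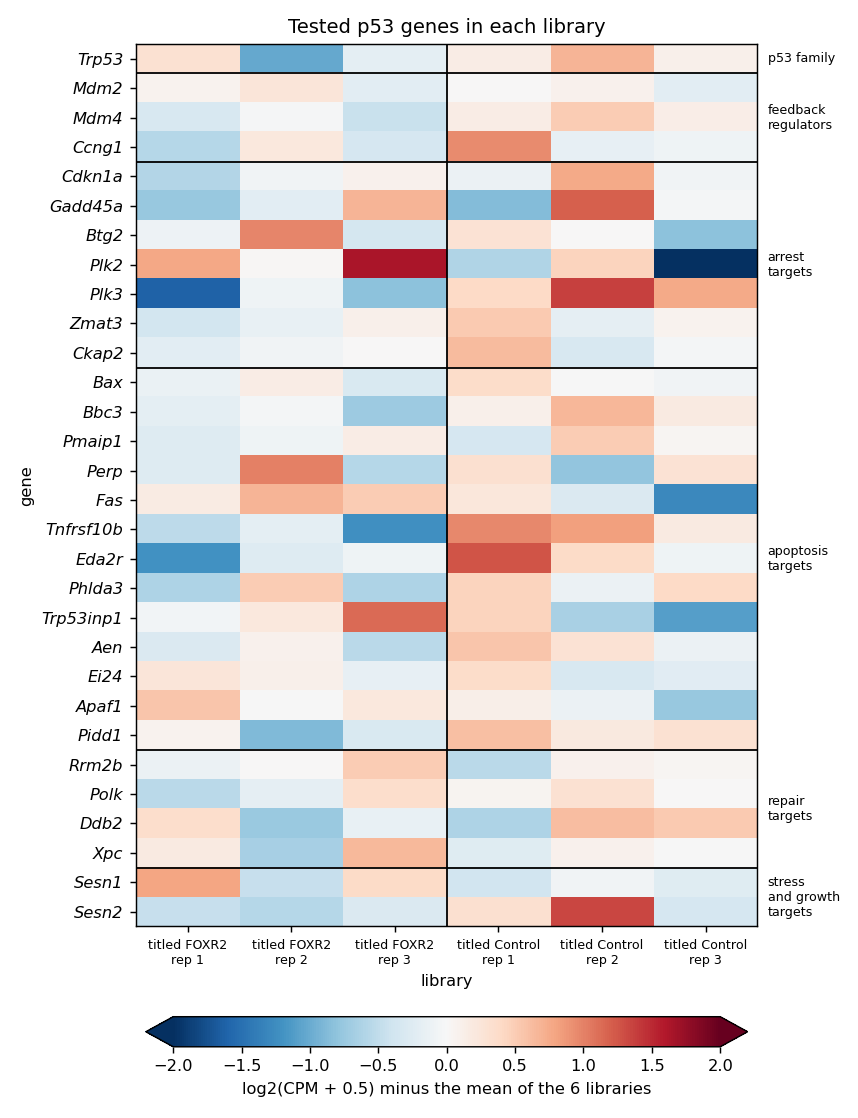
Level of each tested gene (rows, by role) in each library (columns), as log2(CPM + 0.5) minus the mean of the 6 libraries, with colours saturating at 2 either way. Plk3 and Tnfrsf10b are lower in all 3 libraries titled FOXR2, and Control replicate 2 is highest for Trp53, Mdm4, Cdkn1a, Gadd45a, Plk3, Bbc3, Pmaip1, Ddb2 and Sesn2.

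Apoptosis targets formed the largest group, with 8 of 13 below 0 (61.5%, against 49.3% of all tested genes) and a median log2 fold change of -0.20. The receptors that signal cell death lay on both sides of 0. Tnfrsf10b, the mouse receptor for the ligand TRAIL, stood at 2.81, 3.67 and 1.53 CPM across the FOXR2 libraries and at 8.81, 7.93 and 4.88 CPM across the Control ones. The groups did not overlap, and counts were low, between 21 and 147 per library. The log2 fold change was -1.43 ± 0.45 (edgeR adjusted p = 0.114; DESeq2 adjusted p = 0.0419, in a range of 0.0419 to 0.291 over the 13 alternative fits).

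Eda2r, an X-linked receptor for ectodysplasin that p53 induces, stood at 4.50, 9.17 and 10.43 CPM across the FOXR2 libraries and at 27.3, 14.7 and 10.46 CPM across the Control ones. FOXR2 replicate 3 and Control replicate 3 nearly touched, with almost no gap between the groups (log2 fold change -1.12 ± 0.46; edgeR adjusted p = 0.191). Without Control replicate 1 the fold change was -0.65. Fas, the receptor for Fas ligand, lay on the other side at 2.15, 3.29 and 2.85 CPM across the FOXR2 libraries and at 2.28, 1.43 and 0.465 CPM across the Control ones. The groups overlapped (log2 fold change 0.99 ± 0.60; edgeR adjusted p = 0.355).

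Among the BCL-2 family genes, which act at mitochondria, Bbc3 was the one with groups that did not overlap. Bbc3, or PUMA, stood at 15.8, 17.7 and 10.8 CPM across the FOXR2 libraries and at 19.6, 29.1 and 20.5 CPM across the Control ones. The log2 fold change was -0.64 ± 0.28 (edgeR adjusted p = 0.213). Bax, the pore former, was abundant for its length at 97.0 CPM per kilobase, above 94.7% of tested genes, though 192 of its exon bases are shared with Gm45808 on the same strand. It ranged from 67.1 CPM in FOXR2 replicate 3 to 108 in Control replicate 1 (log2 fold change -0.20 ± 0.21, interval -0.68 to 0.29; edgeR adjusted p = 0.598). Pmaip1, or NOXA, lay between 2.22 and 4.35 CPM in all libraries (adjusted p = 0.798).

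**Figure D4:**
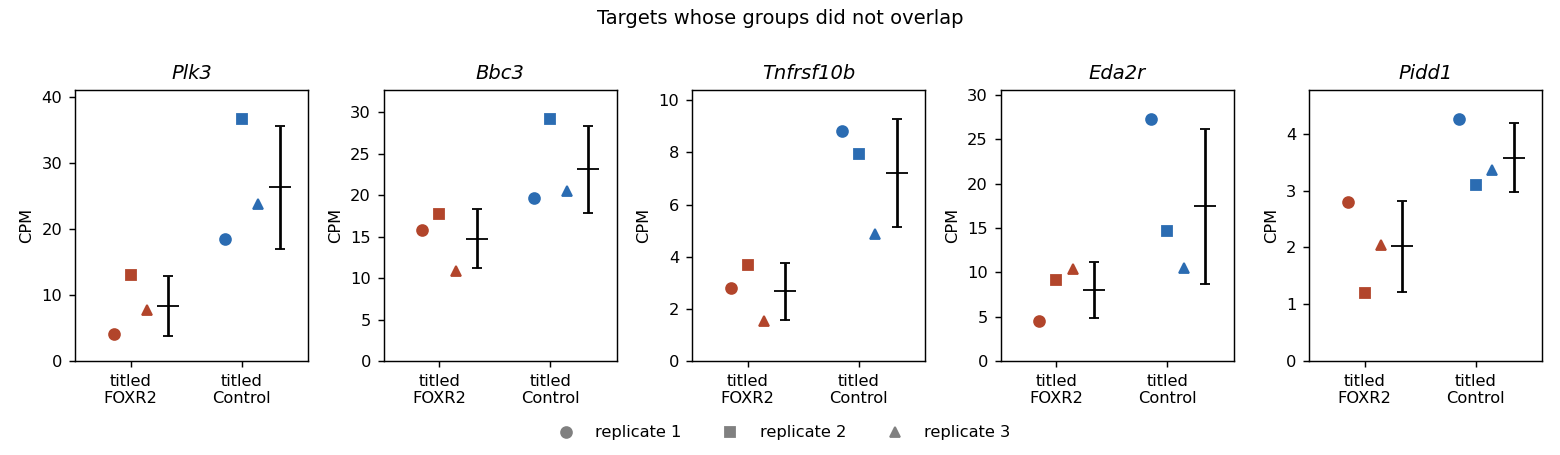
Levels in CPM (vertical axes, from 0) of the 5 targets whose groups did not overlap, by library, with the mean ± SD of 3 libraries as bars. Titled FOXR2 is the lower group in each, and the gap is narrowest for Eda2r, at 10.43 against 10.46 CPM.

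Pidd1, which assembles the caspase-2 activating complex, stood at 2.81, 1.2 and 2.04 CPM across the FOXR2 libraries and at 4.26, 3.10 and 3.37 CPM across the Control ones. The groups did not overlap, on 19 to 71 counts per library (log2 fold change -0.82 ± 0.44; edgeR adjusted p = 0.294). Apaf1, the core of the apoptosome, lay the other way, at 15.9 to 23.6 CPM against 9.24 to 17.3, with overlap (log2 fold change 0.49 ± 0.31; adjusted p = 0.360).

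Ei24, an endoplasmic reticulum protein, had the highest CPM of the apoptosis genes, at 181, 164 and 137 across the FOXR2 libraries and at 197, 122 and 131 across the Control ones. The Control libraries spanned the wider range and enclosed the FOXR2 ones (log2 fold change 0.10 ± 0.24; edgeR adjusted p = 0.823). Aen, a nuclease that p53 induces, had a log2 fold change of -0.49 ± 0.25, Phlda3, an inhibitor of Akt, one of -0.40 ± 0.36, and Trp53inp1, a stress protein that promotes p53 activity, one of 0.82 ± 0.49 (edgeR adjusted p = 0.268, 0.528 and 0.338). Perp, a membrane protein of cell junctions, was low throughout, at 0.119 to 1.65 CPM. Its highest value was in FOXR2 replicate 2, and its log2 fold change of 0.35 was -0.93 without that library (edgeR adjusted p = 0.846 with all libraries).

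The 4 repair targets had a median log2 fold change of -0.01 and adjusted p of 0.582 to 0.749. Rrm2b, the p53-induced subunit of ribonucleotide reductase, stood at 16.4, 18.0 and 25.5 CPM across the FOXR2 libraries and at 12.1, 19.0 and 18.2 CPM across the Control ones (log2 fold change 0.28 ± 0.29; edgeR adjusted p = 0.582). Xpc, a damage sensor of nucleotide excision repair, stood at 40.4, 22.3 and 56.5 CPM across the FOXR2 libraries and at 30.0, 38.1 and 35.7 CPM across the Control ones. The libraries titled FOXR2 held both its lowest and its highest value (log2 fold change 0.20 ± 0.33; edgeR adjusted p = 0.749). Polk, a translesion polymerase, lay between 3.07 and 6.13 CPM. Ddb2, another damage sensor, lay between 0.506 and 2.09 CPM. Ddb2 shares 621 exon bases with Acp2 on the other strand, and whether strand was used in counting is not given, so its counts are uncertain. The same limit holds for Cdkn1a, Rrm2b, Gadd45a, Ei24 and Trp73. They share 273, 260, 238, 62 and 280 exon bases with genes on the other strand.

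The sestrins, which restrain mTORC1 under stress, lay on opposite sides. Sesn2 stood at 42.7, 39.6 and 48.2 CPM across the FOXR2 libraries and at 73.9, 150 and 46.4 CPM across the Control ones. Control replicate 2 was far above the rest, and Control replicate 3 lay within the range of the libraries titled FOXR2 (log2 fold change -1.05 ± 0.40; edgeR adjusted p = 0.167). Without Control replicate 2 the fold change was -0.46. Sesn1 stood at 36.9, 15.2 and 27.8 CPM across the FOXR2 libraries and at 16.2, 20.1 and 17.8 CPM across the Control ones, with overlap (log2 fold change 0.56 ± 0.33; edgeR adjusted p = 0.341). Gdf15, a secreted stress cytokine, failed the filter on low counts, with 0, 48 and 6 counts across the FOXR2 libraries and 4, 31 and 5 across the Control ones. The high values lay in 1 library of each group.

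The highest library was a Control library for 18 of the 30 genes, or 60%, against 48.3% of all tested genes. Control replicates 1 and 2 were each the highest library for 9 of the 30 genes, or 30%, where they were highest for 12.8% and 17.1% of all tested genes. Control replicate 3 was highest for 0 of the 30, against 18.4% of all tested genes. FOXR2 replicate 1 was highest for 2, and FOXR2 replicates 2 and 3 for 5 each.

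Without FOXR2 replicate 2, a comparison chosen after seeing the data, the groups did not overlap in 10 of the 30 with titled FOXR2 the lower (33.3%, against 23.3% of all tested genes) and in 4 with it the higher (13.3%, against 20.3%). Aen, Bax, Ccng1 and Phlda3 joined the lower set, and Apaf1, Plk2, Sesn1 and Xpc formed the higher one. The part of the microglia and macrophage markers in these values was not tested.

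Per kilobase of exon, the 30 genes spanned most of the range of expression. Trp53, Bax, Ei24, Cdkn1a and Plk2 were the highest, at 200, 97.0, 64.0, 56.9 and 49.7 CPM per kilobase. Perp, Ddb2 and Pidd1 were the lowest, at 0.344, 0.556 and 0.832. Mdm2 stood at 14.2 and Mdm4 at 2.64, against a median of 7.88 over all tested genes with a length.

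**Figure D5:**
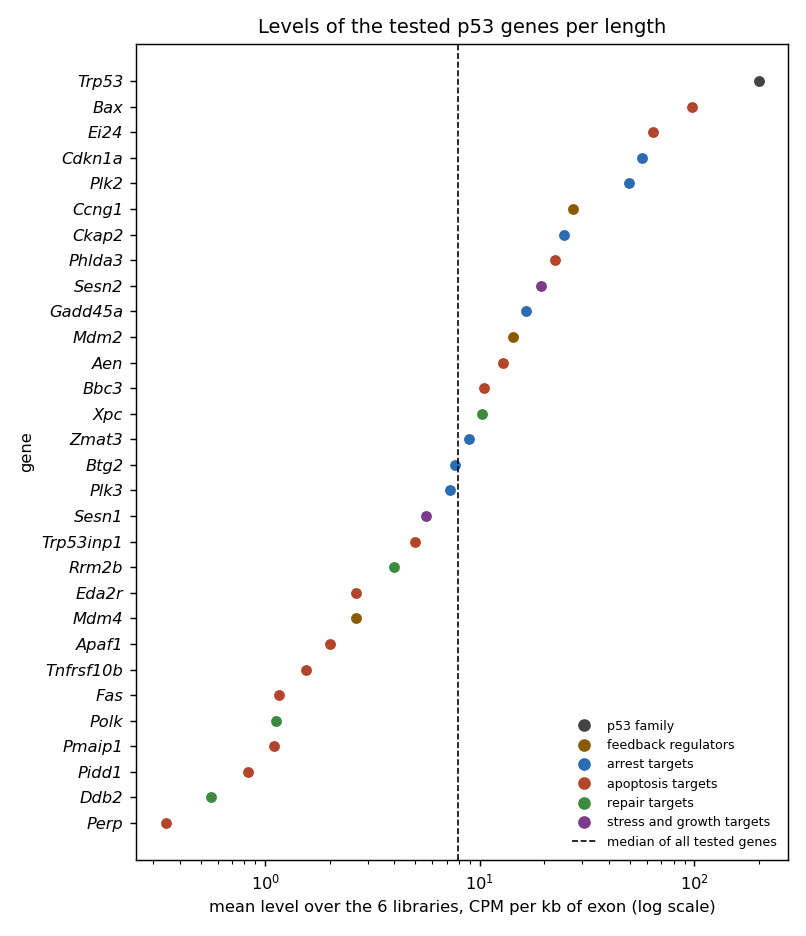
Mean level over the 6 libraries in CPM per kilobase of exon (horizontal axis, log scale) of the 30 tested genes in order, coloured by role, with the median of all tested genes (7.88) as a dashed line. Trp53 leads at 200 CPM per kilobase and Perp is last at 0.344.

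Of 23 further p53 targets, 20 were tested and 0 were called in either direction by edgeR. At an unadjusted p under 0.05, 0 lay higher and 1 lower, against 11.9% and 13% of all tested genes, with a median log2 fold change of -0.01. The smallest p belonged to Cpt1c, a brain carnitine palmitoyltransferase (log2 fold change -0.61 ± 0.25; edgeR adjusted p = 0.184), Tigar, a regulator of glycolysis (0.49 ± 0.23; adjusted p = 0.243) and Rps27l, a ribosomal protein paralog (-0.43 ± 0.20; adjusted p = 0.243).

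Of 22 further regulators of p53, 21 were tested and 0 were called by edgeR. At an unadjusted p under 0.05, 3 lay higher and 1 lower, against 11.9% and 13% of all tested genes, with a median log2 fold change of 0.22. Hipk2, a kinase that phosphorylates p53 in its activation domain, came nearest. It stood at 58.5, 53.6 and 58.1 CPM across the FOXR2 libraries and at 34.4, 31.6 and 32.9 CPM across the Control ones. All FOXR2 libraries lay above all Control libraries (log2 fold change 0.78 ± 0.16; edgeR adjusted p = 0.0516). DESeq2 called it higher (adjusted p = 0.000955, in a range of 0.000955 to 0.192 over the 13 alternative fits). Of the 12542 genes to which DESeq2 gave an adjusted p, 7.3% were called higher. The checkpoint kinase Chek2 had a log2 fold change of -0.74 ± 0.24 and the acetyltransferase Crebbp one of 0.66 ± 0.24 (edgeR adjusted p = 0.123 and 0.15). Cdkn2a, whose locus encodes both p16 and the Mdm2 inhibitor p19Arf, averaged 146 CPM over the 6 libraries, and its gene count does not tell these transcripts apart (log2 fold change 0.37 ± 0.21; adjusted p = 0.334).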

How the data were processed

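Poly(A) RNA was sequenced from 6 mouse tumors. The authors deposited read counts per gene symbol as whole numbers, not normalized. Per the submitters' processing notes, TopHat, DESeq2 and hg19 (a human build) were used, with neither roles nor versions stated. The library kit keeps strand, per the labels' protocols. For the counter, its annotation and whether it used strand, the entry is: not given in the sources used here. A deposited sheet was read for its group words, in no unit of measurement. From 24537 rows (23 with dates in place of symbols), filterByExpr with a count minimum of 10 kept 13101. Counts were tested with edgeR 4.0.16 in R 4.3.3 (TMM factors 0.961 to 1.03, quasi-likelihood F test, no covariate, Benjamini-Hochberg adjustment over all tested genes, threshold 0.05). Log2 fold changes used a prior count of 0.125, standard errors and 95% intervals came from the F statistic, and CPM used the TMM-scaled totals of kept genes. Non-overlap means that every library of one group lay below every library of the other. Trp53 was also compared by an exact permutation test of log2(CPM + 0.5) over 20 splits. The fit was tested on simulated data. Exon lengths and overlaps came from the GENCODE vM21 basic set, matched by symbol (97.7% of tested genes). Groups and replicate numbers came from the titles. No label ties samples to animals, and p-values here cover only sample-to-sample spread, which may be technical. Same-group libraries differed by more than sampling noise (lowest median chi-square over genes 8.37). The floor of 3 counts covers counting error only.

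The genes and lists were chosen with earlier results of these data known. Full values are given for Trp53, Mdm2, Mdm4 and Cdkn1a, for genes that were called or whose groups did not overlap, and, in each role, for the smallest p and the highest mean CPM. Fas, Plk2, Sesn1, Pmaip1 and the other genes given by library or range were added after their values were seen. Alternatives were RLE factors, total-count scaling, no filter, DESeq2 1.42.0, limma-voom (limma 3.58.1), the replicate number as a block, animal sex as a covariate and each library left out in turn.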

Additional observations from a re-analysis of the deposited data

How the results depend on the processing

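By edgeR and limma-voom, 0 of the p53 genes were called under every alternative. DESeq2 called 2 lower, 0 higher, and 1 further pathway gene higher, while it gave Perp no adjusted p. The median log2 fold change of the p53 genes ran from -0.34 to -0.081 when 1 library was left out, the latter without Control replicate 1. Over all genes, edgeR called 119 higher and 181 lower. Total-count scaling gave 119 lower, DESeq2 916 higher and 921 lower, and animal sex as a covariate 7 higher and 0 lower (2398 at an unadjusted p under 0.05). With 1 library left out the counts were 1 to 123 higher and 0 to 82 lower (2241 to 3268 at an unadjusted p under 0.05), the 123 and 82 without FOXR2 replicate 2. Groups that did not overlap were found for 6 p53 genes lower (20%, against 17.2% of all tested genes) and 0 higher (against 13.1%). Without FOXR2 replicate 2 they were found for 10 lower (33.3%, against 23.3%) and 4 higher (13.3%, against 20.3%).

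The replicate number as a block called 0 genes higher and 0 lower (2652 at an unadjusted p under 0.05), and 0 p53 genes. Deviations of same-numbered libraries correlated at -0.02, -0.24 and -0.01, and those of libraries with unlike numbers at -0.20 to 0.25. No pairing by number was seen, though 3 libraries a group are too few to exclude one.

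Log2 fold changes of 8 genes turned sign, none of them called and the cause not tested. With animal sex as a covariate, Gadd45a stood at 0.044 and Xpc at -0.016. Leaving out 1 library in turn, Mdm2 ran from -0.026 (without FOXR2 replicate 2) to 0.20, Btg2 from -0.13 (without FOXR2 replicate 2) to 0.65, Perp from -0.93 (without FOXR2 replicate 2; -0.12 without Control replicate 2) to 0.78 and Xpc from -0.14 (without FOXR2 replicate 3) to 0.48. Ckap2 ran from -0.42 to 0.077 (without Control replicate 1). Without Control replicate 2, Gadd45a reached 0.45 (lowest -0.84), Pmaip1 0.10 (lowest -0.41) and Ei24 -0.022 (highest 0.34). The Trp53 difference in mean log2(CPM + 0.5) was -0.61, and -0.60 with a pseudocount of 5 or -0.58 with total-count CPM. With 3 libraries a group, the exact test cannot go below 0.1, and Perp, Ddb2, Pidd1, Fas and Pmaip1 rest on few counts.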
